A study of Mus musculus with 9 samples.

Results

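The genes described here are the nuclear genes of oxidative phosphorylation, measured in single cells of mouse spleen. They were taken from the 55385 gene rows of the count matrices by symbol: every row whose symbol starts with Nduf, Uqcr, Cox4, Cox5, Cox6, Cox7, Cox8 or Atp5, together with Sdha, Sdhb, Sdhc and Sdhd. Of the 109 rows that match, 5 have names ending in -ps and a number and were left out, which leaves 104 rows with 103 symbols. The name of the list covers most of its rows but not all of them. Subunits of complex I make up 36 rows, complex II 4, complex III 8, complex IV 20 and complex V 18, while 8 rows are complex I assembly factors of the Ndufaf series, 4 are predicted copies and 6 carry pseudogene names. One of the pseudogene-named rows, Ndufb1-ps, holds counts at the level of a complex I subunit, and no row is named Ndufb1. Atp5o is listed in 2 rows, and the row ENSMUSG00000116933 holds no count.

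Spleens came from WT mice and from mice carrying R594C, a point mutation, on 1 allele (R594C/+, heterozygous) or on both (R594C/R594C, homozygous) of the gene for IRE1a, the endoplasmic reticulum kinase and endoribonuclease that splices the Xbp1 messenger RNA. The series title describes loss of that splicing activity and B cell tolerance. Total splenocytes were sorted with the viability dye DAPI, stained with oligonucleotide-tagged antibodies, and captured on a 10x Chromium with the NextGEM 3.1 chemistry, which reads the 3′ end of each transcript with a unique molecular identifier (UMI). The cells of 4 WT, 4 R594C/+ and 2 R594C/R594C replicates carried hashtag antibodies against CD45 and MHC class I. No age, strain background or treatment is named in the labels for any of the 3 genotypes. All cells of a genotype went through 1 capture, so an effect of genotype cannot be told apart from one of the capture or of its staining. The labels do not say that the hashtags mark separate animals, and p-values between genotypes therefore measure the spread between these hashtag samples.

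Oxidative phosphorylation is carried out at the inner mitochondrial membrane. Complex I, the NADH dehydrogenase, and complex II, the succinate dehydrogenase, pass electrons to ubiquinone. Complex III passes them on to cytochrome c, and complex IV, cytochrome c oxidase, passes them to oxygen. Complexes I, III and IV pump protons, and complex V, the ATP synthase, uses the proton gradient to make ATP. Complex II is built from nuclear-encoded proteins alone, whereas the other complexes combine nuclear-encoded subunits with subunits encoded in mitochondrial DNA. In lymphoid tissue the pathway is known for rising on activation and in antibody-secreting cells, and for its low use in neutrophils, which live largely on glycolysis.

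Promoters of these genes are known to share binding motifs for the transcription factors NRF1, GABPA and YY1. The RefSeq promoter table for GRCm38.p6, which covers 250 bases before to 50 bases after each start, matched 76 of the 103 symbols with 81 promoters. Both strands were searched for 3 motifs. The NRF1 core GCGCATGCG, which overlaps its own reverse complement, was present in 10 of the 81 promoters (12.35%) and in 575 of all 32851 promoters of that length (1.75%). The GABPA/ETS core CCGGAAG was present in 19 (23.46%), against 8.86% of all promoters. The YY1 core AAGATGGC was present in 11 (13.58%), against 2.75%. At least 1 motif was present in 34 member promoters (41.98%), against 12.54% of all promoters. A match is a description of the letters and does not show that a factor binds. The promoters of 5 genes are shown because they hold each motif in turn and belong to genes described below. They are Atp5k (chr5:108434350-108434649, minus strand), Atp5md (chr19:47090598-47090897, minus strand), Uqcrc1 (chr9:108936398-108936697, plus strand), Ndufs3 (chr2:90904672-90904971, minus strand) and Ndufc1 (chr3:51408906-51409205, minus strand). Sequences are written 5′ to 3′ along the strand of the gene, with matches to a motif in capitals.
Atp5k: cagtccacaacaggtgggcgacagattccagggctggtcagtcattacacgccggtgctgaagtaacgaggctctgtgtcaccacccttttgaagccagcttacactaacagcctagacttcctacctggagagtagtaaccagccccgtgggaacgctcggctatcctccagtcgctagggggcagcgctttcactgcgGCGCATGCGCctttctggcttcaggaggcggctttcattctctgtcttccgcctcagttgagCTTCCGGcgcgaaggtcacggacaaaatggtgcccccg
Atp5md: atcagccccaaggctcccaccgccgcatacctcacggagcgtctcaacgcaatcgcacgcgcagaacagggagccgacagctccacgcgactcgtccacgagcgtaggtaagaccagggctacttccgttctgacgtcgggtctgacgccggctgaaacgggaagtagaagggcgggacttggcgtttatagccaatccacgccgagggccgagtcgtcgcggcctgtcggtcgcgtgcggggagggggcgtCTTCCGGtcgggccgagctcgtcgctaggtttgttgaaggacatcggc
Uqcrc1: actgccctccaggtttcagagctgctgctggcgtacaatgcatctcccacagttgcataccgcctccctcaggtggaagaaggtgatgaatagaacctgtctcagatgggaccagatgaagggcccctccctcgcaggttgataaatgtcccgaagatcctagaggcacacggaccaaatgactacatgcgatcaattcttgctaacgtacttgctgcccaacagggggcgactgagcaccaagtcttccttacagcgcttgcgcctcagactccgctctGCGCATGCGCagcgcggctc
Ndufs3: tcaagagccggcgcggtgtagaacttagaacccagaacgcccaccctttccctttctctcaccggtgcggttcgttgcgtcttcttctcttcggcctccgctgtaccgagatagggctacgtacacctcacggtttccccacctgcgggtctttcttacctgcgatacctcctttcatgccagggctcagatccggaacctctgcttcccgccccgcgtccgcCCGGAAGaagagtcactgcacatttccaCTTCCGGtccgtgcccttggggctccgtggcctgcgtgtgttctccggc
Ndufc1: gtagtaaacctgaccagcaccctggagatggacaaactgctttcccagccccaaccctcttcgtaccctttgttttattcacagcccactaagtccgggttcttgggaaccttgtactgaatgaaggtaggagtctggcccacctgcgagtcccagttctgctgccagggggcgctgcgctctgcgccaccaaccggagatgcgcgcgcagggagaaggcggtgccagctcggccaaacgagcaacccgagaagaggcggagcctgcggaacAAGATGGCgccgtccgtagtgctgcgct
Atp5k holds an NRF1 and a GABPA/ETS match, Uqcrc1 an NRF1 match, Atp5md a GABPA/ETS match, Ndufs3 a pair of GABPA/ETS matches and Ndufc1 a YY1 match.

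The captures held 16027 (WT), 17980 (R594C/+) and 17444 (R594C/R594C) barcodes with 74546390, 87953814 and 74538447 RNA UMIs. Barcodes shared between captures numbered 79, 68 and 89 for the pairs WT with R594C/+, WT with R594C/R594C and R594C/+ with R594C/R594C. After hashtag singlets were kept and cells scored as doublets removed, 41060 cells remained, in 38 clusters built without the genes described here. The selection was unequal between genotypes: 3.33% of WT, 4.09% of R594C/+ and 9.63% of R594C/R594C singlets were removed as doublets. Barcodes without a hashtag numbered 1763, 591 and 193 in the same order. Clusters were named from marker genes, with the ending -like, and the rest stayed numbered, some of them with many markers of a named type. Clusters 34 and 37 held 8 neutrophil markers each, with medians of 6312 and 14821 UMIs per cell. The cluster named neutrophil-like held 6, with a median of 1756 UMIs, and does not include clusters 34 and 37. Some names rest on mixed markers. The B1-like B cluster held 3 B1, 3 follicular B and 3 marginal zone B markers, with Zbtb32 and Bhlhe41 among its leading genes. The transitional-like B cluster held 4 transitional and 7 follicular B markers, with Cd93 and Vpreb3 among its leading genes. WT replicate 2, all R594C/+ replicates and R594C/R594C replicate 2 expressed Xist as females do, and the others did not, so sex differs between the genotype groups. Counts of 3′ UMIs carry no length term, and levels of different genes, in CPM (the count scaled to a fixed library total), were compared without dividing by length. A level is a CPM of the UMIs summed over the cells of 1 class in 1 replicate. A class with fewer cells or less RNA per cell gives a less precise level, and a change in other genes moves a CPM.

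On this TMM scale, the nuclear subunits summed over complexes I to V were highest in erythroid-like and plasma cell-like cells and lowest in neutrophil-like cells. As a plain share of all UMIs, given below, plasma cell-like cells were under follicular-like B cells. Erythroid-like cells had 26928 ± 2616 CPM (SD, n = 5; lowest 22661, median 27514, highest 29101), and no WT replicate had 10 of these cells. Plasma cell-like cells had 22783 ± 945.9 CPM (SD, n = 10; lowest 20984, median 22834, highest 24371). Follicular-like B cells, the most numerous class with 15101 cells, had 13456 ± 361.2 CPM (SD, n = 10; lowest 13036, median 13357, highest 14029). Neutrophil-like cells had 7131.4 ± 1430 CPM (SD, n = 10; lowest 5275.4, median 7078.7, highest 9530.2). No plasma cell-like replicate overlapped any follicular-like B replicate, and no neutrophil-like replicate did. The erythroid-like cluster held 8 cycling markers as well as 8 erythroid markers.

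Most other classes lay between these ends. cDC1-like cells, conventional dendritic cells of the cross-presenting type, had 19615 ± 1854 CPM and cycling-like cells, a cluster with Mef2b, Rgs13 and S1pr2 among its leading genes, had 18802 ± 1060 CPM (SD, n = 10 each). Monocyte-like cells followed at 16878 ± 1277 CPM (SD, n = 9), with cluster 13, an unnamed cluster led by Il4i1, Shmt1, Mir155hg and Nop16, at 16617 ± 656.6 CPM (SD, n = 10). B1-like B (15161), cDC2-like (15095), pDC-like (15051), effector or memory CD8 T-like (14740), CD8 T-like (14683), marginal zone-like B (14590), CD4 T-like (14272) and NK-like (13886) cells formed a gradual series of mean CPM. Regulatory T-like (13325), transitional-like B (12983) and effector or memory CD4 T-like (12855) cells were close to follicular-like B cells, and macrophage-like (11534) and activated DC-like (11479) cells were lower in mean CPM. Of all neighbouring pairs in this order, the means differed by more than both SDs only between erythroid-like and plasma cell-like, plasma cell-like and cDC1-like, cluster 13 and B1-like B, and the unnamed cluster 21 and neutrophil-like cells. The classes with the highest sums were also the deepest: UMIs per cell had a median over replicates of 18380 in erythroid-like, 16370 in plasma cell-like, 13720 in cycling-like and 12320 in cDC1-like cells, against 2821 in follicular-like B and 1955 in neutrophil-like cells. Cycling markers numbered 8 in the erythroid-like, 8 in the cycling-like, 3 in the cDC1-like and 0 in the plasma cell-like cluster. The parts of depth and of cycling in the order were not tested.

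**Figure D1:**
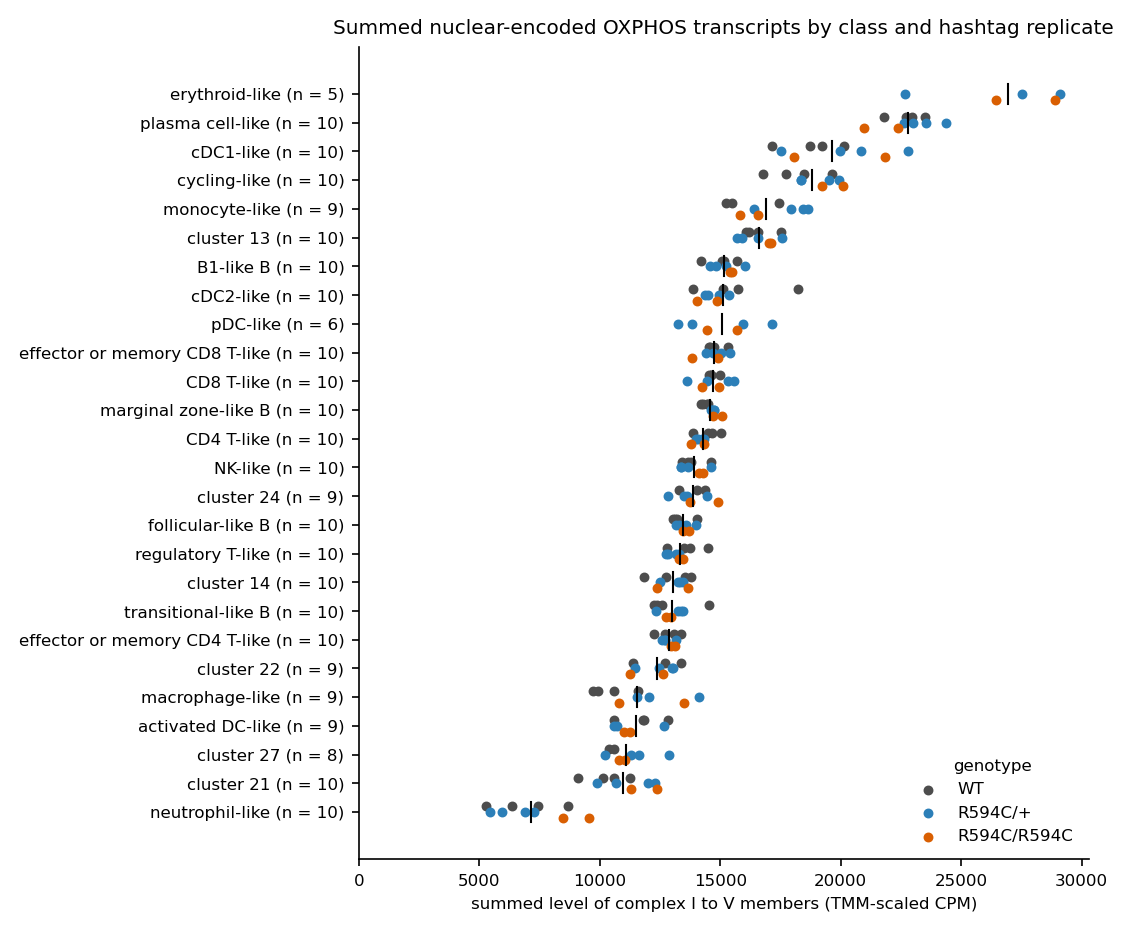
Summed CPM, on the TMM scale, of the nuclear subunits of complexes I to V (linear horizontal axis) for each class. Points are hashtag replicates coloured by genotype and the bars mark the class mean. Plasma cell-like replicates lie between 20984 and 24371 CPM, follicular-like B replicates between 13036 and 14029, and neutrophil-like replicates between 5275.4 and 9530.2.

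Immunoglobulin transcripts took between 60.73 and 65.91% of all UMIs in plasma cell-like replicates, so the scale of the comparison matters there. As a plain share of all UMIs the 104 rows made up a median of 0.819% in plasma cell-like cells and 1.33% in follicular-like B cells, the reverse of the order in CPM after TMM scaling, which sets the bulk of genes equal. In erythroid-like cells the share was 2.98%, in cycling-like cells 2.20%, in cDC1-like cells 1.85% and in neutrophil-like cells 0.765%. All levels, those above included, and the fold changes below are on the TMM scale unless library totals are named. The fold changes are read against the median of all genes tested.

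The members differed widely in level, and the most abundant ones were small subunits. Cox4i1, the ubiquitous form of a regulatory subunit of cytochrome c oxidase, averaged 836 CPM over the 26 classes, and Cox8a, one of its smallest subunits, 640.6 CPM. Uqcrh, the hinge protein of complex III, averaged 592.9 CPM and Uqcrq, another small complex III subunit, 200.9 CPM. In complex V the highest were Atp5h, a peripheral stalk subunit, at 546.5 CPM and Atp5e, the epsilon subunit, at 517.6 CPM. In complex I they were Ndufa13 at 258.4 CPM and Ndufa2 at 211.2 CPM, both accessory subunits. Complex II was the least abundant, with Sdhb, its iron-sulfur subunit, at 101.5 CPM and Sdha, its flavoprotein, at 89.87 CPM. Of the 104 rows, 73 reached 10 CPM in the mean of every class, 88 in at least 1 class and 16 in none. Among the 88, 51 had their highest class mean in erythroid-like and 20 in plasma cell-like cells, and 68 had their lowest in neutrophil-like cells.

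Classes were compared with follicular-like B cells within hashtag replicates by edgeR's quasi-likelihood test, with calls at a Benjamini-Hochberg adjusted p below 0.05 over all 9007 genes tested. The low-count filter kept 84 of the 104 members, namely 36 of complex I, 4 of complex II, 8 of complex III, 12 of complex IV, 17 of complex V, 6 assembly factors and Ndufb1-ps. A member could pass the filter through a class in which it was high, so counts are also given for the 73 members at 10 CPM or more in every class. The members left out were Ndufaf1, Ndufaf5, Cox4i2, Cox6a2, Cox6b2, Cox7a1, Cox7b2, Cox8b, Cox8c, Cox6c2, Ndufa4l2, Ndufs6b, Ndufb4c, Ndufa11b, Ndufab1-ps, Ndufs5-ps, Atp5pb-ps, Atp5l2-ps, Atp5c1-ps and the row of Atp5o without counts. Cox7b2, Cox8b and Cox8c also had no count in any class.

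In plasma cell-like cells, the antibody-secreting cells of the spleen, 75 of 84 members were higher than in follicular-like B cells and 4 were lower. Of all genes tested, 32.7% were higher and 38.4% lower. The median log2 fold was 0.79 for the members and -0.10 for all genes. Of the 73 members at 10 CPM or more in every class, 66 were higher and 3 lower, with a median of 0.79. Without TMM factors, on library totals, 5 of the 84 were higher and 74 lower, beside 8.18% and 80.7% of all genes; the member median was then -0.67 and that of all genes -1.48, so the distance between them was 0.81 in place of 0.89.

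On the TMM scale the higher members came from every complex. Complex I had 34 of 36 tested members higher (median log2 fold 0.93), complex II 3 of 4 (0.98), complex III 6 of 8 (0.81), complex IV 11 of 12 (0.67) and complex V 16 of 17 (0.60). Of the 6 assembly factors tested, 4 were higher and 1 lower.

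Ndufa1, the X-linked accessory subunit of complex I, had the largest difference in plasma cell-like cells. Its level was 472.7 ± 52.57 CPM there (SD, n = 10; lowest 423, median 458.2, highest 592.1) and 87.29 ± 8.55 CPM in follicular-like B cells (lowest 70.99, median 88.69, highest 99.58). The groups did not overlap, and the log2 fold was 2.43 ± 0.06 (SE; edgeR, Benjamini-Hochberg adjusted p = 2.84e-125). Uqcrq, a small complex III subunit, had 558.7 ± 58.83 CPM (lowest 459.6, median 552.8, highest 657.8) against 146.6 ± 9.1 CPM (lowest 127.7, median 145.3, highest 161.4). Its log2 fold was 1.93 ± 0.07 (SE; edgeR, adjusted p = 7.56e-88), again without overlap. Uqcr11, the smallest complex III subunit, had a median of 261.1 CPM (lowest 219.8, highest 300.2) against 73.05 (lowest 66.66, highest 79.47) and a log2 fold of 1.83 ± 0.07. Not every complex III subunit was called: Uqcr10 had a log2 fold of 0.12 and Uqcrh one of -0.02. On library totals without TMM factors Ndufa1, Uqcrq and Uqcr11 were still called higher, with log2 folds of 0.96, 0.46 and 0.37.

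Other plasma cell-like increases were smaller, and all those in this paragraph held on the TMM scale only: on library totals Ndufs3 was not called (log2 fold -0.04) and Ndufa4, Sdhb, Sdhc, Sdhd, Uqcrc1 and Ndufc1 were called lower (-0.22 to -0.61). Ndufs3, a core subunit of complex I, had a log2 fold of 1.43 ± 0.08, to 143.2 CPM. Ndufa4, first described with complex I and now counted with complex IV, rose from 258 to 610.2 CPM in the mean (log2 fold 1.24 ± 0.07). In complex II, the 3 called members were Sdhc (1.16) and Sdhd (0.85), the membrane anchors, and Sdhb (1.10 ± 0.07), while Sdha had -0.13 ± 0.08 and was not called. Uqcrc1, a core subunit of complex III, had 0.97 ± 0.09, and Ndufc1, a small complex I subunit, had 1.03 ± 0.07.

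The 4 lower members in plasma cell-like cells came from different complexes. Cox7a2l, a COX7A relative that joins complexes III and IV into supercomplexes, had 303.7 ± 45.87 CPM (lowest 244.1, median 309.5, highest 365.7) against 442.5 ± 17.13 CPM in follicular-like B cells (lowest 411.8, median 443.5, highest 468.3). The ranges did not overlap, and the log2 fold was -0.54 ± 0.07 (SE; edgeR, adjusted p = 7.16e-12). Ndufs1, the largest core subunit of complex I, had -0.40 ± 0.14 and Atp5l, subunit g of the ATP synthase, -0.27 ± 0.08. Ndufaf6, an assembly factor, had -1.23 ± 0.37 at a low level, 2.61 against 6.19 CPM.

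**Figure D2:**
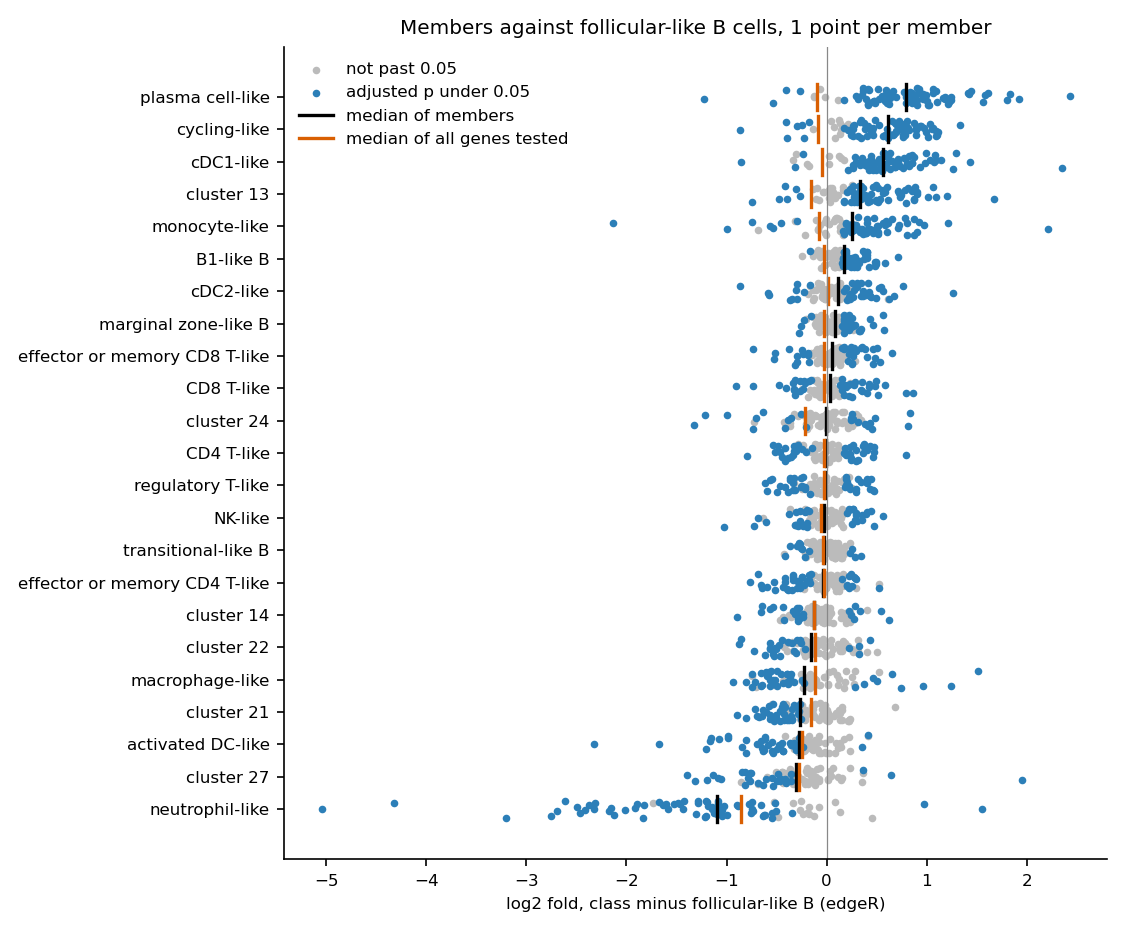
Log2 fold of each tested member in each class minus follicular-like B (linear horizontal axis); blue points have an adjusted p below 0.05, the black mark is the member median and the orange mark the median of all genes tested. Plasma cell-like members centre on 0.79 and neutrophil-like members on -1.10, with all genes at -0.10 and -0.85; on library totals without TMM the plasma cell-like medians were -0.67 and -1.48.

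In cDC1-like cells 72 of 84 members were higher and 3 lower, where 31.6% of all genes were higher and 32.1% lower; medians were 0.57 for the members and -0.05 for all genes. Complex IV had 12 of 12 tested members higher, complex V 16 of 17, complex III 7 of 8 and complex I 29 of 36. Ndufaf6 was the member with the largest fold, at 33.41 ± 11.51 CPM in cDC1-like cells (SD, n = 10; lowest 18.21, median 29.3, highest 52.7) against 6.19 CPM in follicular-like B cells (lowest 4.95, highest 8.31). Its log2 fold was 2.36 ± 0.27 (SE; edgeR, adjusted p = 4.82e-16), so the same assembly factor was above follicular-like B cells in cDC1-like and below them in plasma cell-like cells. Uqcr11 had 1.43 ± 0.09, and Sdhd 1.29 ± 0.13, from a median of 38.38 to one of 98.82 CPM. The lower members were Ndufaf4 (-0.86 ± 0.23), another assembly factor, Uqcrh (-0.32 ± 0.07) and Ndufs7 (-0.23 ± 0.10), a core subunit of complex I.

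In cycling-like cells 67 members were higher and 7 lower (32% and 36.1% of all genes), with medians of 0.61 for the members and -0.09 for all genes. Sdhd had a log2 fold of 1.33 ± 0.10, Atp5g3, which encodes the c-ring subunit, 1.12 ± 0.07, and Uqcr10 1.11 ± 0.07. Ndufa6, a complex I accessory subunit of the LYR family, went the other way. Its level was 137.1 CPM in the mean (lowest 107.1, median 136, highest 156.7) against 250.9 CPM in follicular-like B cells (lowest 227.3, median 251.1, highest 270.7). The log2 fold was -0.86 ± 0.07 (SE; edgeR, adjusted p = 3.01e-27). Over the 23 classes compared, Ndufa6 was lower in 12 and higher in 1.

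In cluster 13, 56 members were higher and 6 lower (19.9% and 29.5% of all genes; medians 0.33 and -0.16). Complex V had 16 of 17 higher and the assembly factors 5 of 6, with a median log2 fold of 0.85. Ndufaf4 reached its highest class mean there, 119.7 ± 23.15 CPM (SD, n = 10; lowest 76.1, median 120.7, highest 151.4), against 37.8 CPM in follicular-like B cells (lowest 33.08, highest 44.95). Its log2 fold was 1.67 ± 0.12 (SE; edgeR, adjusted p = 1.06e-31). Atp5g1, another c-ring gene, had 1.20 ± 0.08 and Uqcrq 1.09, while Cox7a2l had -0.75 ± 0.08.

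B1-like B cells had 47 members higher and 1 lower (24.1% and 26.5% of all genes; medians 0.18 and -0.02). Sdhd had the largest fold, 0.71 ± 0.09, with a median of 60.73 CPM against 38.38. The lower member was Ndufs7, at -0.16 ± 0.06. Marginal zone-like B cells had 27 higher and 4 lower (19.4% and 21%; medians 0.08 and -0.03). Their largest fold was that of Atp5md, a small subunit known for its part in ATP synthase dimers. Atp5md had 249.5 CPM in the mean (lowest 215.8, median 243, highest 298.9) and a log2 fold of 0.57 ± 0.07 (edgeR, adjusted p = 6.62e-12). Ndufv1, which binds the flavin and NADH in complex I, was among the lower members (-0.28). Without the low-count filter, which tests 100 members, the higher calls were 30 in B1-like B and 13 in marginal zone-like B cells, beside 9.79% and 6.84% of all genes. Transitional-like B cells had 4 higher and 9 lower (11.6% and 17.1%), both below the background.

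T and NK cells were near follicular-like B cells in the median but differed member by member. CD4 T-like cells had 22 higher and 18 lower (29.7% and 31.5% of all genes; member median -0.01), and CD8 T-like cells 25 higher and 16 lower (30.3% and 31.6%; 0.03). These shares lie near or below the background, and so do the lower calls on library totals, 29 and 33 beside 35.9% and 38.9% of all genes. Lineages gated on antibody tags were compared with gated B cells, not with follicular-like B cells. There 42 and 31 of 86 members were lower, beside 35.2% and 33.6% of all genes. Gated B cells were 65.11% follicular-like B, 11.93% marginal zone-like B, 8.44% transitional-like B and 7.77% B1-like B cells. Against follicular-like B cells, complex V had 9 of 17 higher and 0 lower in CD4 T-like cells. In CD8 T-like cells it had 10 higher and 0 lower. Complex I had 7 higher and 11 lower in CD4 T-like cells, and 6 higher and 8 lower in CD8 T-like cells. Cox7a2l had the largest positive fold in both. Its CPM in CD4 T-like cells was 762.9 ± 60 (SD, n = 10; lowest 604.7, median 782.6, highest 818.1), above every follicular-like B replicate, with a log2 fold of 0.79 ± 0.07 (edgeR, adjusted p = 5.71e-24). In CD8 T-like cells it was 795.1 ± 112.7 (lowest 504.3, median 814.4, highest 901.5), with a log2 fold of 0.86 ± 0.07 (edgeR, adjusted p = 1.59e-27). Ndufs8, a core subunit of complex I, was the lowest in CD4 T-like cells (-0.80 ± 0.08, 63.83 against 108.2 CPM) and among the lowest in CD8 T-like cells (-0.73). Ndufa10, an accessory subunit of the complex I membrane arm, had 0.79 ± 0.07 in CD8 T-like cells.

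Effector or memory CD8 T-like cells had 23 higher and 12 lower (30.6% and 32.4%), with Ndufa10 (0.66), Cox7b (0.53) and Atp5h (0.50) at the top. Effector or memory CD4 T-like cells had 11 higher and 28 lower (29.5% and 31.3%), with Ndufv3 at 0.53 and Uqcrfs1, the Rieske iron-sulfur protein of complex III, at -0.66. Regulatory T-like cells had 18 higher and 21 lower (28.5% and 28.4%), with Ndufv3 at 0.47 and Uqcrfs1 at -0.56. NK-like cells had 17 higher and 18 lower (26.9% and 30.4%), with Atp5h at 0.47 and Ndufaf4 at -1.02. Ndufb1-ps was among the lowest 3 members in CD4 T-like, CD8 T-like, effector or memory CD8 T-like and NK-like cells (-0.47 to -0.68).

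Myeloid classes were split. Monocyte-like cells had 51 higher and 7 lower (32.2% and 34.1% of all genes; medians 0.26 and -0.07), and cDC2-like cells 30 higher and 10 lower (34.6% and 30.5%; 0.12 and 0.01), the latter near the background for higher calls. Ndufaf7, a methyltransferase needed to assemble complex I, had the largest fold in both. It had 57.36 CPM in monocyte-like cells (n = 9; lowest 32.48, median 60.51, highest 74.85) against 12.8 CPM in follicular-like B cells (lowest 9.60, highest 18.33), a log2 fold of 2.21 ± 0.17 (edgeR, adjusted p = 1.69e-29). Ndufaf4 had -2.13 ± 0.28 in the same cells, so assembly factors of complex I moved in opposite directions.

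Macrophage-like cells had 9 higher and 32 lower (26.6% and 29.3%; medians -0.23 and -0.12), with 3 of 4 complex II members higher. Sdhc, a membrane anchor of that complex, had 89.86 CPM in the mean (n = 9; lowest 48.3, median 93.08, highest 123.3) against 32.73 (lowest 27.06, median 32.27, highest 37.53), a log2 fold of 1.51 ± 0.18 (edgeR, adjusted p = 2.87e-15). Sdhd had 1.24 ± 0.18 (median 95.28 against 38.38 CPM) and Sdha 0.50 ± 0.13, while Sdhb, at 0.18 ± 0.15, was not called. Complex V had 1 higher and 11 lower and complex I 1 higher and 11 lower in the same cells. Cox5a, a cytochrome c oxidase subunit, was the complex IV member with a positive call, at 0.97 ± 0.09. Activated DC-like cells had 2 higher, Cox5a (0.41) and Ndufa1 (0.36), and 36 lower (22.3% and 29.4%; medians -0.28 and -0.24).

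In neutrophil-like cells 67 members were lower and 2 higher, where 44.7% of all genes were lower and 19.7% higher. The median log2 fold was -1.10 for the members and -0.85 for all genes tested, a distance of -0.24. That distance was -0.13 with WT replicates only and -1.06 without the low-count filter. Among the 73 members at 10 CPM or more in every class, 58 were lower and 1 higher (median -1.06). Complex I had 30 of 36 lower and 0 higher, complex II 3 of 4, complex III 6 of 8, complex IV 9 of 12 and complex V 14 of 17 with 1 higher. Ndufa5, a complex I subunit of the peripheral arm, had 6.65 CPM in the mean with a median of 0 and a highest value of 26.04, against 58.88 to 67.89 CPM in follicular-like B cells (log2 fold -3.20 ± 0.47; edgeR, adjusted p = 3.4e-10). The 304 neutrophil-like cells were shallow: 3 counts over the class amount to 5.05 CPM, Ndufaf6 had no count in any replicate and Ndufaf4, at 2.48 CPM, lay under that level. The higher members were Ndufaf7 (1.55 ± 0.39) and Atp5md (0.97 ± 0.15), and Atp5md ranged from 29.64 to 950.4 CPM between replicates (median 235.9), overlapping follicular-like B cells.

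Across the 23 classes, the members called higher most often were Atp5c1, the gamma subunit of the rotor, and Cox7b, each in 15 classes, then Atp5j2, Ndufa13 and Ndufa8 in 14. Those called lower most often were Ndufaf8 in 16 classes, Ndufaf4 and Ndufc1 in 13 and Ndufa6 in 12. Cox7a2l was higher in 7 and lower in 12. Sdhd was higher in 10 and lower in 0, and Atp5l was lower in 10 and higher in 0. All 23 comparisons share follicular-like B cells as the reference, so a member's level there enters each of them. These tallies are therefore not counts of independent results.

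Lists of neighbouring pathways show where the members kept company. Among 10 mitochondrially encoded respiratory genes tested, which code for the partners of the nuclear subunits, 1 was higher and 4 lower in plasma cell-like cells (median -0.03). In cDC1-like and cDC2-like cells 10 of 10 were lower (medians -0.90 and -0.94), and likewise in cycling-like cells (-0.51), while the nuclear members were mostly higher in cDC1-like and cycling-like cells. Cells with over 10% mitochondrial UMIs had been removed, and the level of these genes also depends on that filter. Mitochondrial ribosomal proteins, which translate the mitochondrially encoded subunits, had 53 of 74 higher and 4 lower in plasma cell-like (median 0.57), 69 and 4 in cycling-like (0.70), 60 and 0 in cluster 13 (0.55) and 1 and 65 in neutrophil-like cells (-1.95). Carriers and other partners of the chain had 12 of 16 higher in plasma cell-like (0.65) and 14 of 16 in cycling-like cells (0.85). Genes of the TCA cycle moved less in plasma cell-like cells, with 8 of 17 higher and 3 lower (0.17).

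Cytosolic ribosomal proteins had 6 of 83 higher and 73 lower in plasma cell-like cells (median -0.60) but 78 higher and 3 lower in CD8 T-like cells (0.52). Glycolytic genes had 8 of 14 higher and 0 lower in neutrophil-like cells (0.51), where the nuclear oxidative phosphorylation genes had 2 of 84 higher. In cycling-like cells 11 glycolytic genes were higher and 2 lower (1.24). Assembly factors outside the list had 17 of 27 higher and 3 lower in plasma cell-like cells (0.44). Of 10 regulators of mitochondrial gene expression tested, 0 were higher and 5 lower in plasma cell-like (-0.26) and 0 higher and 7 lower in cDC1-like cells (-0.87).

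**Figure D3:**
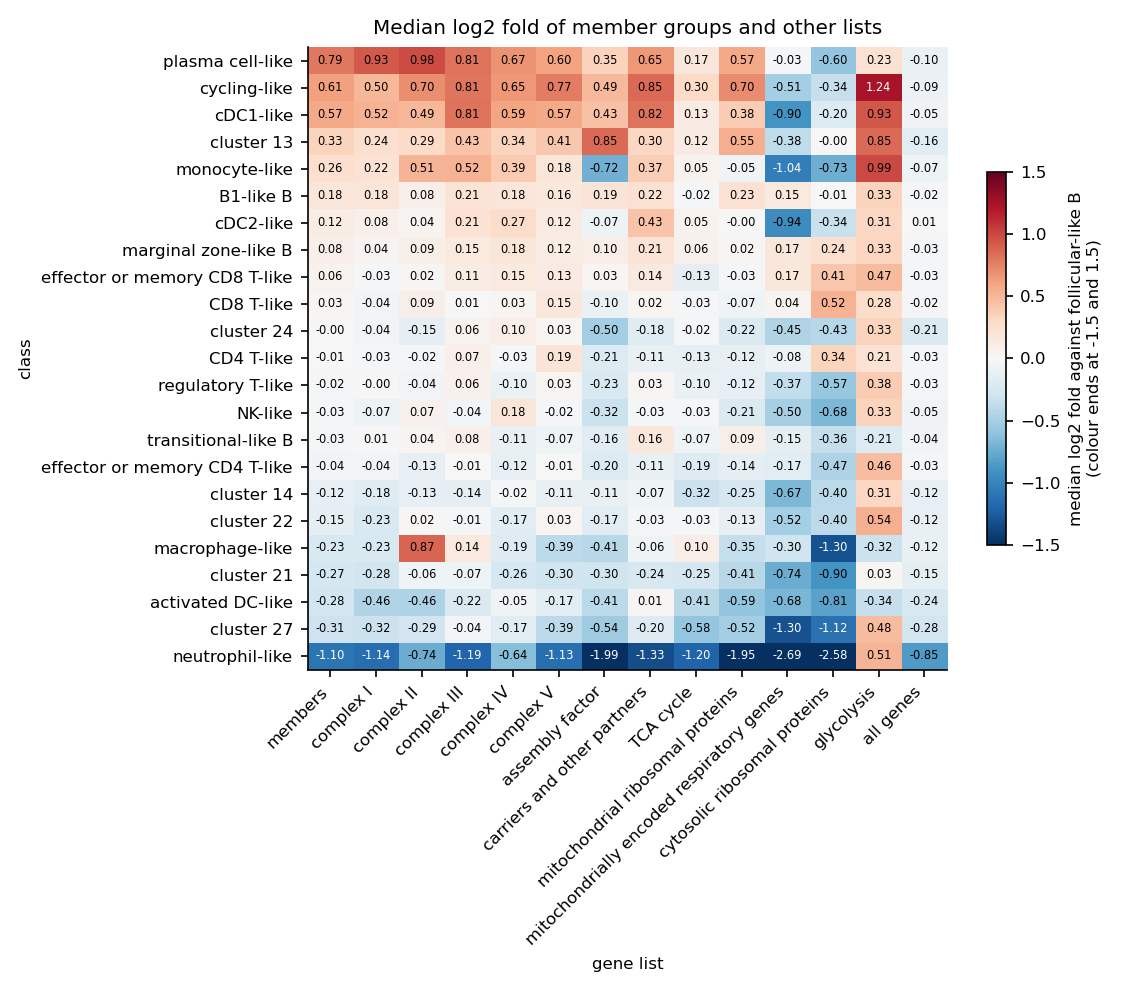
Heat map of the median log2 fold against follicular-like B cells (colour scale in log2 units) for each class (rows) and gene list (columns). In the plasma cell-like row, on the TMM scale, complexes I to V lie between 0.60 and 0.98, and cytosolic ribosomal proteins are at -0.60.

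Several subunits exist as paralogs with tissue-restricted forms, and some of the largest differences between classes were theirs. Cox6a2, the form of COX6A known from heart and skeletal muscle, had 955.8 ± 256.3 CPM in pDC-like cells (SD, n = 6). Its values there were 1189, 1196, 908.4 and 510.1 CPM in R594C/+ replicates 1 to 4 and 878.6 and 1053 CPM in R594C/R594C replicates 1 and 2, and no WT replicate had 10 pDC-like cells. In activated DC-like and erythroid-like cells Cox6a2 was at 0, and the ratio of the highest to the lowest class mean was at least 271. Plasma cell-like cells had 61.4 ± 32.69 CPM of Cox6a2 (n = 10; lowest 17.09, median 55.44, highest 134.2), with all replicates above the follicular-like B mean of 0.39 CPM. Siglech, a pDC marker, lay between 0 and 1.76 CPM in the same plasma cell-like sums and between 1774 and 2388 CPM in pDC-like cells. Bst2, a marker of both cell types, lay between 268.9 and 431.4 CPM in plasma cell-like, 52.56 and 73.92 CPM in follicular-like B and 3556 and 4763 CPM in pDC-like cells. The ubiquitous form Cox6a1 had 221.2 CPM in follicular-like B and 414.7 CPM in plasma cell-like cells.

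Cox6b2, the form of COX6B known from testis, was highest in erythroid-like cells at 172.8 ± 18.08 CPM (SD, n = 5; lowest 153.7, median 164.7, highest 197.4). It had 18.38 CPM in monocyte-like, 12.73 in cDC2-like, 11.53 in cDC1-like and 1.34 in follicular-like B cells, and the ratio of its highest to its lowest class mean was at least 191. The other members with the largest ratios were Atp5g1 (31.9), Ndufa5 (27.2), Ndufv1 (25.2), Ndufaf4 (at least 23.7), Ndufa12 (21.8) and Atp5o (16.9), each with its lowest class mean in neutrophil-like cells. Their highest class mean was in erythroid-like cells except for Ndufaf4, which was highest in cluster 13.

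The 3 genes for the c-ring subunit encode the same mature protein. Follicular-like B cells had 187.3 CPM of Atp5g1, 12.31 of Atp5g2 and 152.6 of Atp5g3, and plasma cell-like cells 562.3, 18.01 and 275.2. Atp5g1 thus differed most, with a log2 fold of 1.58 ± 0.07 against 0.84 for Atp5g3 and 0.52 for Atp5g2 in plasma cell-like cells. On library totals Atp5g1 was not called (0.12), and Atp5g3, Atp5g2 and Cox7a2 were called lower (-0.62, -0.93 and -0.40). Of the COX7A relatives, Cox7a2 had 205.6 CPM in follicular-like B and 428.8 CPM in plasma cell-like cells (lowest 389.3, median 429, highest 474.8), while Cox7a2l fell there. The order of the pair was therefore turned, with Cox7a2 above Cox7a2l in plasma cell-like cells and below it in follicular-like B cells. In CD4 T-like and CD8 T-like cells Cox7a2 had log2 folds of 0.04 and 0.04 and was not called, where Cox7a2l was higher. Cox7a1, the muscle form, was at or below 2.10 CPM in every class. Cox4i1 had 764.6 CPM in follicular-like B cells, and its paralog Cox4i2, known from lung, stayed at 4.72 CPM in plasma cell-like cells. Ndufa4l2, a relative of Ndufa4 known to rise in hypoxia, had 4.61 CPM in plasma cell-like cells and no count in follicular-like B cells.

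**Figure D4:**
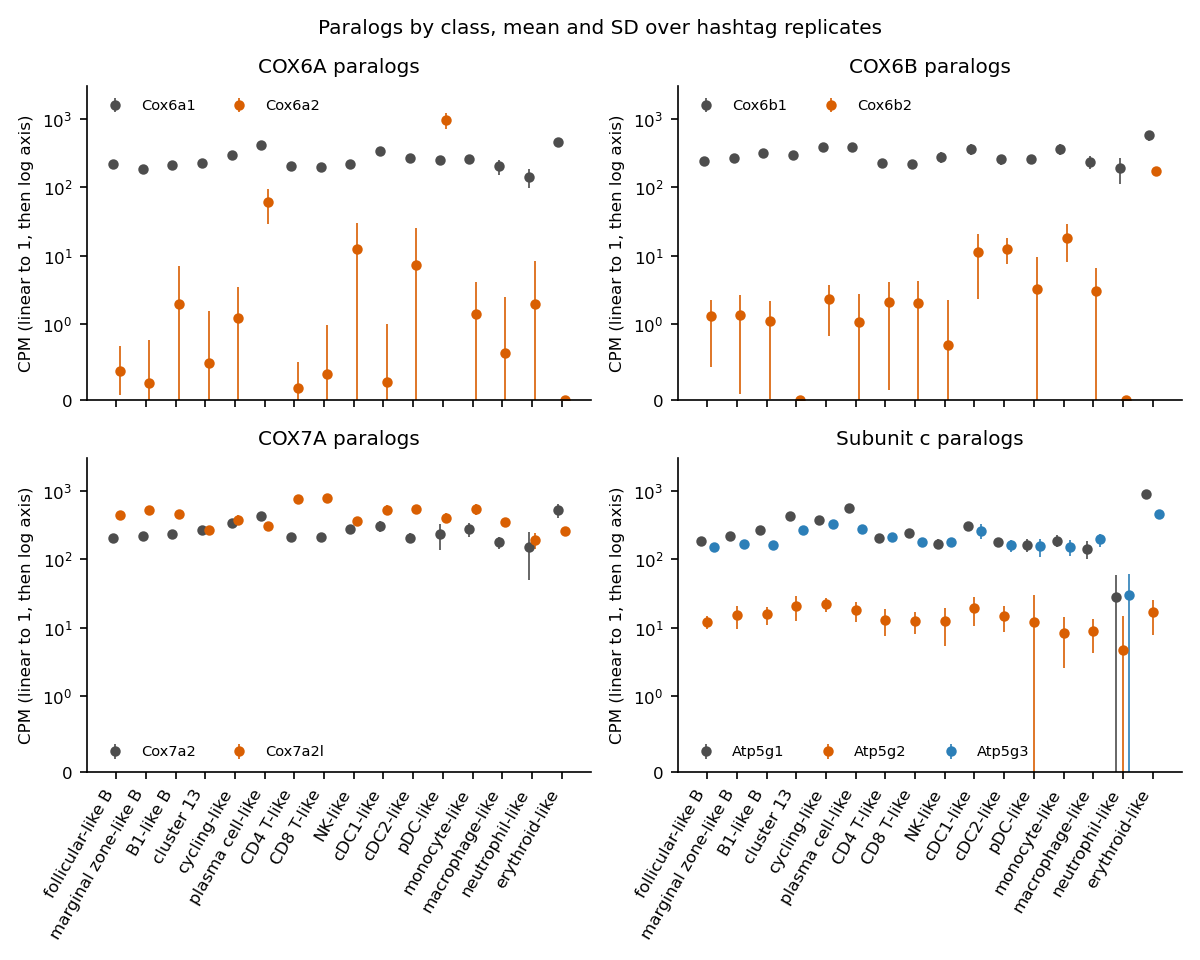
Mean CPM of paralogous subunits by class (vertical axis linear near 0 and logarithmic above; error bars are SD over hashtag replicates). Cox6a2 peaks in pDC-like cells at 955.8 CPM, and Cox7a2 passes Cox7a2l in plasma cell-like and erythroid-like cells.

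Between genotypes, no member passed the threshold in any class. Genotypes were compared within each of 23 classes by edgeR's quasi-likelihood test, adjusted by Benjamini-Hochberg over all genes of that class, which gave 1707 tests of members in each contrast. For R594C/R594C minus WT, 0 of 1707 were called by edgeR, where 0.0938% of all 127934 tests were, and 69 (4.04%, against 5.38% of all genes) had an unadjusted p below 0.05. For R594C/+ minus WT, 0 were called, where 0.169% of all tests were, and 61 had an unadjusted p below 0.05 (3.57% against 5.91%). For R594C/R594C minus R594C/+, 0 were called, where 0.131% were, and 70 had an unadjusted p below 0.05 (4.10% against 6.05%). DESeq2 also called 0 in each contrast, with 25, 16 and 24 members at an unadjusted p below 0.05. The lowest adjusted p of a member in these contrasts was 0.181, 0.312 and 0.141 by edgeR.

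How large a difference these data leave room for depends on the class. In follicular-like B cells, the approximate 95% interval of the R594C/R594C minus WT difference lay within 1.5-fold in both directions for 82 of 87 members tested. The median SE was 0.08 on the log2 scale, and the median log2 difference was 0.01. For R594C/+ minus WT it was 84 of 87, and for R594C/R594C minus R594C/+ 83 of 87. In marginal zone-like B cells 78 of 84 intervals lay within 1.5-fold, in CD4 T-like cells 76 and in CD8 T-like cells 75 for R594C/R594C minus WT. Plasma cell-like cells were less precise, with 68 of 84 and a median SE of 0.14.

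Named by lowest p, the follicular-like B members with the strongest R594C/R594C minus WT differences were these. Ndufb1-ps had 184.8, 182, 195.8 and 192.4 CPM in WT replicates 1 to 4, 190.5, 210.2, 195.6 and 197.6 in R594C/+, and 231.8 and 218.8 in R594C/R594C. Both homozygous values lay above all others, with a log2 difference of 0.24 ± 0.07 (SE; edgeR, Benjamini-Hochberg adjusted p = 0.181). Atp5k, subunit e of the ATP synthase, had 97.78, 89.79, 85.37 and 86.79 CPM in WT, 92.8, 93.39, 90 and 81.97 in R594C/+, and 113.7 and 107.3 in R594C/R594C. These also did not overlap, and the log2 difference was 0.29 ± 0.08 (SE; edgeR, adjusted p = 0.233). Atp5g2 (-0.32 ± 0.20; adjusted p = 0.998, edgeR) and Atp5a1, the alpha subunit (-0.11 ± 0.07), were the lowest in p among negative differences.

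In plasma cell-like cells, Atp5mpl, a small proteolipid-like subunit of the ATP synthase, had 177.4, 166.8, 170.9 and 183.1 CPM in WT, 224.2, 201.5, 167 and 207.5 in R594C/+, and 217.4 and 240.8 in R594C/R594C. Its homozygous values lay above all WT values and overlapped those of R594C/+, with a log2 difference from WT of 0.41 ± 0.15 (SE; edgeR, adjusted p = 0.342). Ndufaf7 had 6.49, 14.24, 6.11 and 4.88 CPM in WT and 15.96 and 17.2 in R594C/R594C (1.02 ± 0.54; edgeR, adjusted p = 0.65). Uqcr10 had -0.39 ± 0.17 (edgeR, adjusted p = 0.534).

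Atp5md, row ENSMUSG00000071528, differed between genotypes in opposite directions in plasma cell-like and follicular-like B cells. In plasma cell-like cells it had 268.3, 262.4, 210.6 and 270.9 CPM in WT replicates 1 to 4, 250.6, 246.6, 196.9 and 225.4 in R594C/+, and 191.5 and 187.6 in R594C/R594C. The homozygous values lay below all others, with a log2 difference from WT of -0.40 ± 0.15 (SE; edgeR, adjusted p = 0.348). In follicular-like B cells it had 174.3, 170.6, 142.8 and 161.4 CPM in WT, 169.1, 160.9, 164.6 and 150.6 in R594C/+, and 192.3 and 192.5 in R594C/R594C, the homozygous values above all others. Neither difference was called within its class. The difference of the differences was -0.65 ± 0.15 (SE; edgeR class by genotype term, Benjamini-Hochberg adjusted p = 0.0268). It was 1 of 84 members called in that comparison, against 0.174% of the 9193 genes tested. In marginal zone-like B, CD4 T-like and CD8 T-like cells 0 of 84 members were called by edgeR in the same comparison with follicular-like B cells, with 2, 2 and 3 members at an unadjusted p below 0.05 (6 in plasma cell-like cells). The call for Atp5md was lost without R594C/R594C replicate 1 (adjusted p = 0.146, edgeR) or replicate 2 (0.263), without WT replicate 1 (0.0557) or replicate 4 (0.121), without TMM factors (0.0918) and without the low-count filter (0.278), while the difference itself stayed between -0.55 and -0.65.

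The sum over complexes I to V was also compared by genotype. In follicular-like B cells it was 13345 ± 460.2 CPM in WT (SD, n = 4), 13511 ± 373.3 in R594C/+ (n = 4) and 13568 ± 185 in R594C/R594C (n = 2), with overlapping values. In plasma cell-like cells it was 22734 ± 702, 23386 ± 752.2 and 21673 ± 974.2 CPM. In marginal zone-like B cells it was 14272, 14469, 14448 and 14191 CPM in WT, 14735, 14740, 14635 and 14616 in R594C/+, and 15083 and 14707 in R594C/R594C. There the WT values lay below all others, by an amount small beside the differences between classes, and no test was made of the sum. In CD4 T-like cells it was 14504 ± 484.4, 14148 ± 162.9 and 14054 ± 398.8 CPM, again overlapping. Neutrophil-like cells had means of 6933.3, 6391.1 and 9008.5 CPM, and the values of WT and R594C/R594C overlapped.

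Expressed sex differed between the genotype groups. With expressed sex in the fit, the genes called over all classes were 128, 205 and 269 for R594C/R594C minus WT, R594C/+ minus WT and R594C/R594C minus R594C/+, in place of 120, 216 and 167. Of the members that gave values, 3 are X-linked. Ndufa1 had a log2 difference of 0.07 ± 0.09 between R594C/R594C and WT in follicular-like B and -0.11 ± 0.13 in plasma cell-like cells. Ndufb11, a complex I accessory subunit, had -0.06 ± 0.07 and -0.13 ± 0.12, and Cox7b 0.03 ± 0.08 and -0.04 ± 0.13, and none was called by edgeR. Of the mitochondrially encoded partners, 0 of 12 were higher and 2 lower in follicular-like B cells for R594C/+ minus WT (median -0.23). Of all 10686 genes tested there, 43 were higher and 10 lower. In the same cells R594C/R594C minus WT had 0 called (median 0.056). R594C/R594C minus R594C/+ had 1 higher and 0 lower (median 0.305), beside 18 higher and 38 lower of all genes. In plasma cell-like cells 1 of 11 was higher for R594C/R594C minus WT (median 0.34), beside 2 higher and 12 lower of all 6943 genes.

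**Figure D5:**
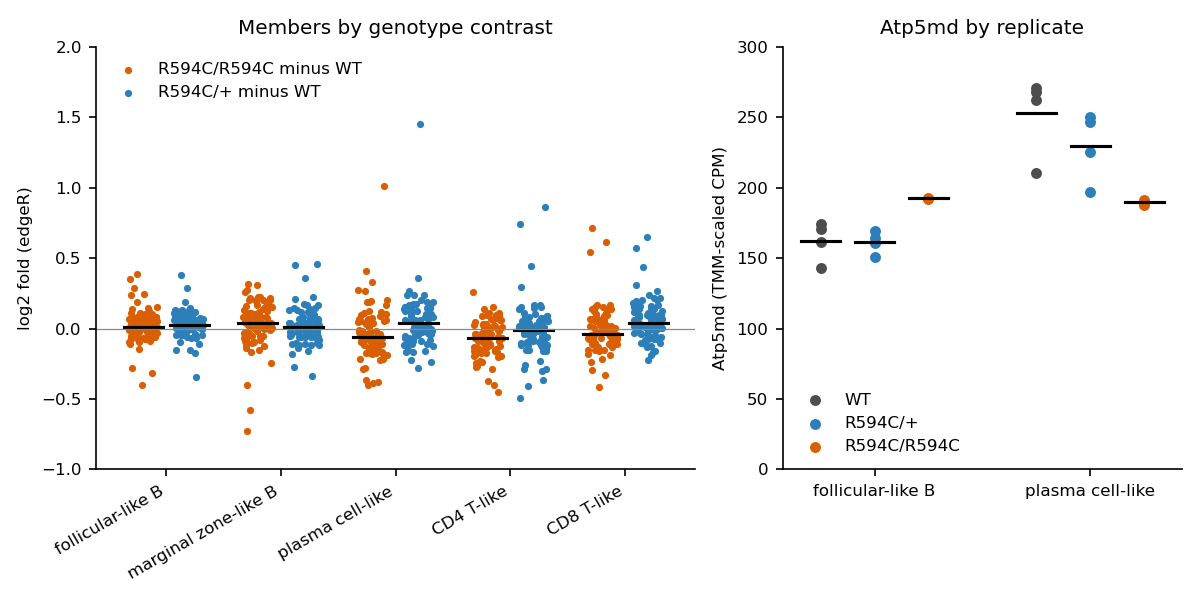
Left, log2 differences of members from WT for R594C/R594C and R594C/+ in 5 classes (points, members; horizontal bars, medians; linear axis), with 0 members called in any contrast. Right, Atp5md in CPM per hashtag replicate for each genotype (horizontal bars mark the mean); the R594C/R594C values are the lowest in plasma cell-like cells and the highest in follicular-like B cells.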

How the data were processed

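UMI counts per gene and barcode were deposited by the authors, unnormalized, per the file headers. The submitters' processing notes name Cell Ranger, STAR, Seurat 3.1.4 and the mm10 build. Hashtags were demultiplexed with Seurat 5.3.0 (HTODemux, quantile 0.99), and doublets were scored against simulated ones and removed. Cells needed 200 genes and at most 10% mitochondrial UMIs. Clusters came from leidenalg 0.10.2 (2000 genes without the members, 30 components, resolution 1.5). Counts were summed per replicate and class with at least 10 cells and tested with edgeR 4.0.16 (R 4.3.3, limma 3.58.1). TMM, filterByExpr and robust quasi-likelihood fits were used, with the hashtag replicate as a block between classes, and DESeq2 1.42.0 was an alternative. The code was tested on simulated data.

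Members, lists and markers were chosen with earlier results of these data known. Named are the 2 most abundant members per complex, the 8 with the largest ratio between classes, the 3 highest and 3 lowest called folds per class, the 2 lowest genotype p-values in each direction, and tissue-restricted isoforms and paralogs. Others, namely those in a class comparison outside its extremes, the X-linked members and Ndufs3, Uqcrc1 and Ndufc1, were picked after their values were seen. The interaction alternatives were chosen after seeing the data.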

Additional observations from a re-analysis of the deposited data

Results flagged for a closer look

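Atp5md stood out because its R594C/R594C minus WT difference was not the same in plasma cell-like as in follicular-like B cells. The difference of the log2 differences was -0.65 (edgeR, Benjamini-Hochberg adjusted p = 0.0268). Both homozygous replicates were lowest in plasma cell-like and highest in follicular-like B cells. Neither difference was called within its class, and R594C/R594C had only 2 replicates. The call was lost on library totals (adjusted p = 0.0918, edgeR) and without the low-count filter (0.278). It was also lost without WT replicate 1 (0.0557) or replicate 4 (0.121).

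Of 30 groups of 4 replicates checked, 2 held a replicate far from the other 3. In the WT follicular-like B cells the summed complexes I to V were 14029 CPM in replicate 1, against 13036 to 13183 CPM in the others. In WT plasma cell-like cells Atp5md was 210.6 CPM in replicate 3, against 262.4 to 270.9 CPM in the others. Chance flags about 1 in 20 groups.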

How the results depend on the processing

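On library totals without TMM factors, members higher in plasma cell-like cells went from 75 to 5 and their median log2 fold from 0.79 to -0.67, so most members named as higher there turned lower. The highest and lowest members of the 8 classes recomputed singly kept their direction. With WT replicates only, which leaves fewer samples, higher calls fell to 46 in cDC1-like (from 72), 16 in B1-like B (from 47), 7 in marginal zone-like B (from 27), 12 in CD4 T-like (from 22) and 12 in CD8 T-like cells (from 25), and lower calls in CD8 T-like cells to 9 (from 16). The share of all genes called fell as well, to 19.8%, 12.7%, 9.09%, 20.0% and 19.4% higher and 22.7% lower in the same order. Without the low-count filter, higher calls were 30 in B1-like B and 13 in marginal zone-like B cells and lower calls 10 in CD8 T-like cells, beside 9.79%, 6.84% and 11.8% of all genes. On library totals CD4 T-like cells had 29 lower (from 18), and CD8 T-like cells 13 higher and 33 lower, beside 35.9%, 25.02% and 38.9% of all genes. Antibody-gated T cells were compared with gated B cells in place of follicular-like B cells. The CD4 T gate had 11 higher and 42 lower and the CD8 T gate 31 lower, beside 34.4%, 35.2% and 33.6% of all genes. With at most 5% mitochondrial UMIs CD4 T-like cells had 36 higher and CD8 T-like cells 10 lower, beside 35.6% and 26.4%. The cause was not tested. Of the values for single members and classes, 786 kept their side of the threshold and 43 did not.

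Between genotypes, R594C/+ minus WT gave 1 call without the low-count filter, Cox6a2 in B1-like B cells (edgeR, adjusted p = 0.0192), where the R594C/+ replicates had 2.43, 0, 16.63 and 0.754 CPM. The 1 member called for the difference between plasma cell-like and follicular-like B cells became 0 on library totals and without the filter, and 0 to 1 when each replicate was left out; these alternatives were added after seeing the data. With the replicate number as a block, 0 members were called in each contrast, and genes called over all classes were 151, 375 and 303 in place of 120, 216 and 167. Deviations of same-numbered samples correlated between -0.114 and 0.555, and those of other-numbered samples between -0.555 and 0.318. The 2 R594C/R594C replicates give mirrored correlations with every other sample, and the ends of both ranges repeat there with opposite sign. These ranges therefore cannot show whether the numbers pair the samples. Leaving out the low-count filter gave 351, 567 and 553 genes, and expressed sex in the fit 128, 205 and 269. Neutrophil-like and activated DC-like levels are limited by depth.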
